A study of Mus musculus with 6 samples.

Results

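The genes described here encode the constitutive proteasome, measured in mouse pancreatic islets. Islets consist of hormone cells and contain the beta cells that make insulin. Markers of the enzyme-making acinar cells of the exocrine pancreas nevertheless took 12.8% to 65.3% of the counts of a library. Members were all protein-coding genes with a symbol that starts with Psma, Psmb, Psmc, Psmd or Psme and a digit, apart from the interferon-inducible catalytic genes Psmb8, Psmb9 and Psmb10. This rule gave 42 of the 46983 genes in the count table, and 39 of them had enough reads to be tested. All islets were wild type and were kept for 24 h in CMRL culture medium before RNA extraction, 3 libraries at low (non-stimulating) and 3 at high (stimulating) glucose. The labels name the cells as beta cells or pancreatic islets, and the glucose concentrations, strain, age and number of animals are not given in the sources used here. No label ties a library to its own animal or culture. The p-values therefore reflect the spread among these samples alone, which may be technical. Library values are always given in the order of replicates 1 to 3.

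The 26S proteasome degrades proteins that carry ubiquitin chains. Its 20S core is a barrel of alpha rings, which gate the entry, and beta rings, of which the subunits Psmb5, Psmb6 and Psmb7 cut peptide bonds. The 19S cap binds ubiquitin, removes it and threads the protein into the core with a ring of ATPases. In secretory cells such as beta cells it also disposes of misfolded proteins returned from the endoplasmic reticulum. Expression of the subunit genes is raised as a set by the transcription factor Nfe2l1 when proteasome capacity falls short.

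The regulatory stretch before the start of 4 of these genes is printed here: the gene with the largest increase (Psmd8), a scaffold gene of the 19S cap with a steady increase (Psmd2), a catalytic gene (Psmb5) and the gene with the most negative estimate (Psmd6). Each is the 250 bases before the start in RefSeq (GRCm38.p6), 5′ to 3′. Psmd8 lies at chr7:29180674-29180923 on the minus strand, Psmd2 at chr16:20651402-20651651 on the plus strand, Psmb5 at chr14:54617996-54618245 on the minus strand and Psmd6 at chr14:14120946-14121195 on the minus strand. Capitals mark matches, on either strand, to the antioxidant response element TGACNNNGC, which Nfe2l1 and Nfe2l2 bind, to the CCAAT box, or to the ETS motif CCGGAAG.
Psmd8: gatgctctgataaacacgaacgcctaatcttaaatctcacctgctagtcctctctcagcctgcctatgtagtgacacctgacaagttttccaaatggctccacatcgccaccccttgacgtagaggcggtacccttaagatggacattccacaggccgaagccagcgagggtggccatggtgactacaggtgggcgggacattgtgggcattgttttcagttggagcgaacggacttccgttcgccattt
Psmd2: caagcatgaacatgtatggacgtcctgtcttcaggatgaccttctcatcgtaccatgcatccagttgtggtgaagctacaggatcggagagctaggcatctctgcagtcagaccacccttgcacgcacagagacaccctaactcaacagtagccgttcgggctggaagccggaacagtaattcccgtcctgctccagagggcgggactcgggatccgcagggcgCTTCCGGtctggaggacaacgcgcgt
Psmb5: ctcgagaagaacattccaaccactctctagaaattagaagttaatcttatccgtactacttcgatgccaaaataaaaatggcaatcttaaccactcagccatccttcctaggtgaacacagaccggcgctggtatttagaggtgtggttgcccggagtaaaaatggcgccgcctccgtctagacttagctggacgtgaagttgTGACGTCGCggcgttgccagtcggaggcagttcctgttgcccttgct
Psmd6: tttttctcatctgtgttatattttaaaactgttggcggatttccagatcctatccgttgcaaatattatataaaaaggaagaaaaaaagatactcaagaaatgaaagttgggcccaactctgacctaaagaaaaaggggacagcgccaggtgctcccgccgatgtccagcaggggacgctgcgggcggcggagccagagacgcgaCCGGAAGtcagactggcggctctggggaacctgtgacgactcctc
Psmd2 and Psmd6 each held 1 ETS match and Psmb5 held 1 antioxidant response element, while none of these letters was found in the Psmd8 window.

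Such windows were matched by symbol for 35 members, and no window was matched for Psma8, Psmb1, Psmb2, Psmb7, Psmc3, Psmd3 and Psmd7. The ETS motif was found in 12 of the 35 members (34.3%), against 6.91% of all 32851 promoter windows of this length. For the CCAAT box the shares were 14 of 35 (40.0%) and 33.8%. The antioxidant response element was found in 5 of 35 (14.3%: Psmb5, Psmb6, Psmc6, Psmd9 and Psmd12) and in 10.2% of all windows. The median log2 fold change of the tested members was 0.56 for the 12 with an ETS match and 0.53 for the 21 without. It was 0.52 for the 5 with an antioxidant response element and 0.56 for the 28 without. Members were counted by symbol and the background by window, and no background limited to tested genes was compared. A match describes the letters and not binding.

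Libraries held 10596020 to 15846235 counts. Their makeup differed between the groups. The 28 markers of acinar cells, the enzyme-making cells of the exocrine pancreas, took 49.7% to 65.3% of the counts at low and 12.8% to 25.5% at high glucose. Of them 26 fell, and none was at 0 in any library. Of 12 beta-cell markers 7 fell, of 12 leukocyte markers 2 rose and 1 fell, of 12 mesenchymal and endothelial markers 4 fell, and of 10 duct-cell markers 4 rose and 1 fell. With the replicate number as a block 8 leukocyte markers fell and 2 rose, 6 mesenchymal and endothelial markers fell and 1 rose, 8 beta-cell markers fell and 1 rose, 2 duct-cell markers fell and 4 rose, and all 28 acinar markers fell. Without high glucose replicate 1, 9 leukocyte and 10 mesenchymal and endothelial markers fell, and each other library left out gave 1 and 2. Acinar markers that fell numbered 13 without low glucose replicate 2 or high glucose replicate 3 and 16 without low glucose replicate 3 or high glucose replicate 2. None of these markers was at 0 in a library, and their part in the results for the proteasome was not tested. In bulk samples fewer cells of a type and less RNA per cell cannot be told apart. Levels are given as CPM (counts scaled to library size) after TMM scaling, which matches libraries on the bulk of their genes. Under scaling by raw library totals the median over all tested genes was 1.16 in place of 0.015 (log2), and directions are relative to TMM unless stated.

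By edgeR's quasi-likelihood test at an adjusted p under 0.05, 17 of the 39 tested members rose and none fell, where 13.3% of all 13996 tested genes rose and 14.2% fell. Of the 39 estimates 37 were above 0, against 50.8% of all genes, and the median log2 fold change (high minus low) was 0.53 against 0.015 for all genes. In 32 members every high glucose library was above every low glucose library, which was so for 23.5% of all genes. Estimates lay in a narrow range, with a standard deviation of 0.32 over the members and 1.40 over all genes, which include genes with few counts. From lowest to highest, the members ran from -0.40 to 1.49. The CCT chaperonin genes (0.31 to 0.92) and the cytosolic ribosomal protein genes (-0.92 to 0.23) spanned less. Among the members only Psmd8 and Psma5 changed by more than 2-fold. The 22 other tested members did not pass the threshold. The standard errors of the 39 ran from 0.13 to 0.38.

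The count of calls depended on single libraries. It was 3 without low glucose replicate 2 (4.86% of all genes higher), 7 without high glucose replicate 3 (5.78%) and 8 without high glucose replicate 2 (7.66%). It was 13 without low glucose replicate 1 (7.71%), 19 without low glucose replicate 3 (8.76%) and 20 without high glucose replicate 1 (19.8%). Psma1, Psma5 and Psmd2 passed in all 6 of these fits, while Psmc6 failed in 5 of them and Psmb4, Psmc2, Psmd13 and Psme1 in 4 each. The members' median stayed between 0.41 and 0.66 in these fits. With the replicate number as a block 21 members rose (15.7% of all genes higher). Library totals gave 39 of 39 higher with a median of 1.71 (59.6% of all genes higher), and scaling to 20 hormone and granule genes gave 2 (Psma5 and Psmd8) with a median of 0.82 where the median of all genes was 0.29 (7.55% of all genes higher). The gap between the median of the members and that of all genes was 0.51 with TMM, 0.54 with library totals, and 0.52 with the hormone and granule genes. A change of scaling moves all genes of a library alike, so this gap could hardly differ and does not test the scaling.

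**Figure D1:**
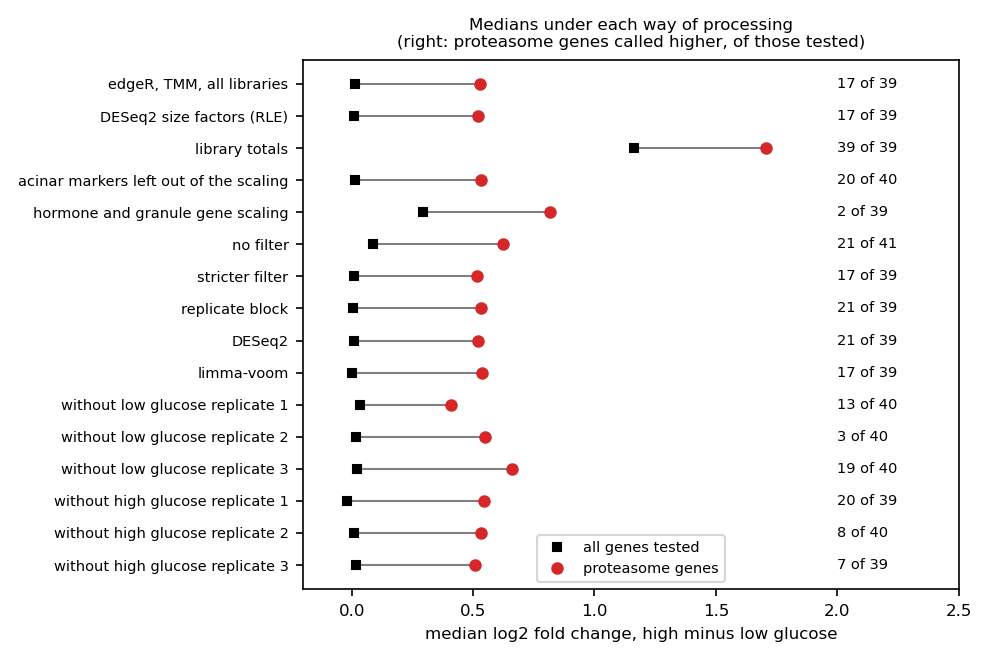
Median log2 fold change (x axis, high minus low glucose) of the proteasome genes (red circles) and of all tested genes (black squares) under each way of processing (rows), with the count of proteasome genes called higher at the right. The circles lie to the right of the squares in every row, by 0.51 with all libraries and TMM scaling, while the count runs from 2 to 39. A change of scaling alone moves circles and squares nearly alike.

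As a share of each library, the 42 genes made up 0.139%, 0.0941% and 0.108% of a low glucose library, against 0.411%, 0.367% and 0.360% of a high glucose one. With the counts of the 28 acinar markers taken out of the library, the shares were 0.275%, 0.271% and 0.294% at low and 0.471%, 0.492% and 0.478% at high glucose. The groups did not overlap on either base, and on the second the libraries of a group lay close together. With acinar markers left out of the scaling, 20 of 40 tested members rose (13.4% of all genes higher).

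**Figure D2:**
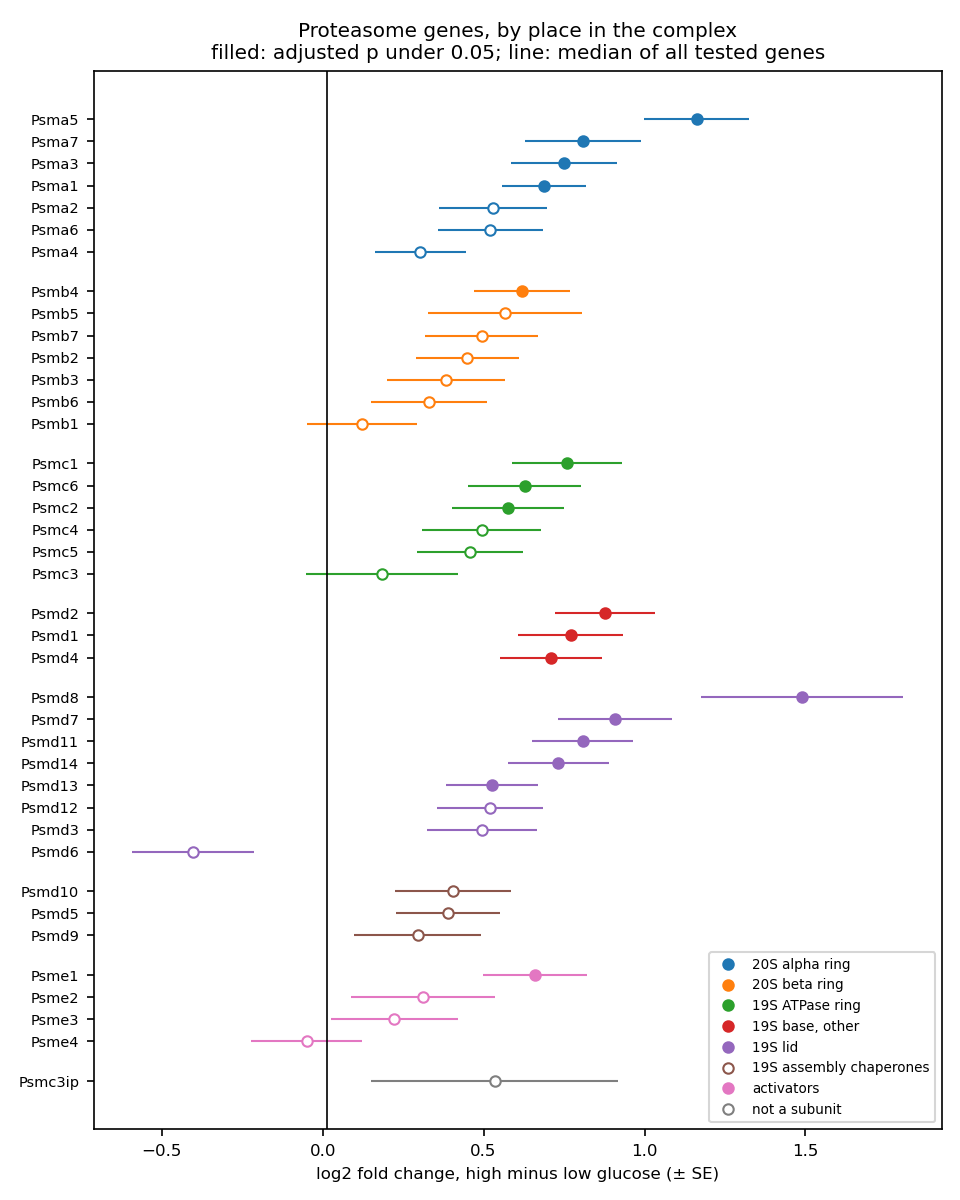
Log2 fold change (x axis, high minus low glucose) with its standard error for the 39 tested genes, grouped and coloured by place in the complex. Filled points passed the test, the vertical line is the median of all tested genes, and all points but Psmd6 and Psme4 have estimates above 0.

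In the alpha ring, whose tails close the gate of the core, 4 of 7 tested genes rose, and the median was 0.69. Psma5, on chromosome 3, had 10.9, 10.1 and 12.4 CPM in the low and 22.7, 25.6 and 26.6 CPM in the high glucose libraries. The lowest high glucose library was far above the highest low one, and the log2 fold change was 1.16 ± 0.16 (edgeR adjusted p = 0.00306). Psma7 had 45.9, 46.2 and 62.0 CPM (low), then 77.3, 96.5 and 95.9 CPM (high), and rose by 0.81 ± 0.18 (edgeR adjusted p = 0.0163). Psma1 had 33.6, 28.3 and 32.4 CPM (low), then 51.1, 49.6 and 51.5 CPM (high), the smallest standard error of the family, with a log2 fold change of 0.69 ± 0.13 (edgeR adjusted p = 0.00928). Psma3 rose by 0.75 ± 0.16. The other tested alpha genes, Psma2 (0.53 ± 0.17), Psma6 (0.52 ± 0.16) and Psma4 (0.30 ± 0.14), did not pass, although their groups did not overlap. With the replicate number as a block, Psma2 (0.55) and Psma6 (0.53) passed.

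In the beta ring 1 of 7 tested genes rose, and the median was 0.45. The gene that passed was Psmb4, a subunit without a catalytic site. It had 35.0, 33.6 and 42.1 CPM in the low and 62.4, 54.8 and 52.9 CPM in the high glucose libraries, a log2 fold change of 0.62 ± 0.15 (edgeR adjusted p = 0.0207). None of the catalytic genes passed. Psmb5, the chymotrypsin-like subunit, had 9.79, 15.5 and 18.6 CPM (low), then 20.8, 21.6 and 22.0 CPM (high) (0.57 ± 0.24, edgeR adjusted p = 0.116). Psmb6, the caspase-like subunit, had 40.3, 58.0 and 60.4 CPM (low), then 64.4, 68.7 and 66.0 CPM (high) (0.33 ± 0.18, edgeR adjusted p = 0.207). Psmb7, the trypsin-like subunit, had 35.4, 43.6 and 53.6 CPM (low), then 58.6, 65.9 and 61.9 CPM (high) (0.49 ± 0.18, edgeR adjusted p = 0.0736). In all 3 the groups did not overlap, and the low glucose libraries were spread widely, with replicate 1 lowest, while the high ones lay close together. Psmb1, a structural subunit, overlapped between the groups (0.12 ± 0.17). Exons of Psmb7 overlap those of Nek6 on the opposite strand over 405 bases, and no strand setting of the counting is given.

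The inducible genes Psmb8, Psmb9 and Psmb10, which replace Psmb5, Psmb6 and Psmb7 in the immunoproteasome, moved otherwise: 1 fell and 2 did not pass. Psmb10 had 44.7, 68.2 and 70.9 CPM in the low and 19.99, 19.5 and 24.2 CPM in the high glucose libraries. Every high library was under every low one, and Psmb10 fell by 1.53 ± 0.21 on the log2 scale (edgeR adjusted p = 0.00285), a call that ended with library totals (-0.31) and when hormone and granule genes set the scaling (-1.25). Psmb9 had 9.04, 8.48 and 7.23 CPM (low), then 5.73, 2.35 and 4.99 CPM (high) (-0.92 ± 0.35). It did not pass, its groups did not overlap, and it passed with the replicate block (-0.98) and without high glucose replicate 1 (-1.17), while its sign turned with library totals (0.24). Psmb8 had 29.3, 20.4 and 21.2 CPM (low), then 28.2, 16.2 and 27.6 CPM (high) (0.015 ± 0.26), with overlapping groups, and passed as higher with library totals (1.13).

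The ratio of an inducible to its constitutive gene within a library needs no scaling between libraries. On the log2 scale of counts per kb of exon with 0.5 counts added, Psmb10 over Psmb7 was 1.34, 1.65 and 1.41 under low and -0.55, -0.75 and -0.35 under high glucose. The inducible gene was thus the higher of this pair in each low and the lower in each high glucose library, a mean difference of -2.01. Psmb9 over Psmb6 was -3.12, -3.73 and -4.01 at low and -4.45, -5.83 and -4.69 at high glucose, again without overlap. Psmb8 over Psmb5 was -0.33, -1.51 and -1.72 at low and -1.47, -2.33 and -1.58 at high glucose, and low glucose replicate 1 stood apart from the other two. The exact permutation test, two-sided and with libraries unpaired, gave p = 0.10 for each of the pairs of Psmb10 and Psmb9 (adjusted over 3 pairs, 0.15). The same permutation test gave p = 0.50 for that of Psmb8 (adjusted, 0.50). In this permutation test 0.10 is the smallest p that 3 against 3 unpaired libraries allow. Leukocytes express the inducible genes strongly, and the summed level of the 12 leukocyte markers was 639.5 to 697 CPM at low and 98.2 to 532 CPM at high glucose, with 2 of the 12 higher and 1 lower by the test. Of the 12 estimates 10 were below 0, 8 markers fell with the replicate block and 5 fell by DESeq2. Their part in the ratios was not tested.

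**Figure D3:**
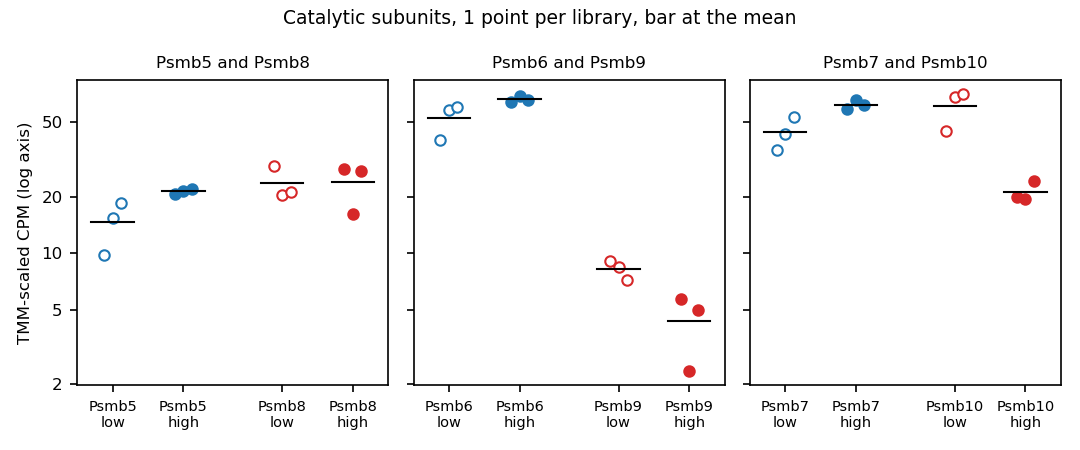
TMM-scaled CPM (log axis) of each constitutive catalytic gene (blue) and its inducible counterpart (red) in low (open) and high (filled) glucose libraries, 1 point per library with a bar at the mean. Psmb10 drops from a mean of 61.3 to 21.2 CPM, while Psmb7 goes from 44.2 to 62.1 CPM.

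The ATPase ring unfolds substrates and opens the gate of the core. Of its 6 genes 3 rose, with a median of 0.53. Psmc1 had 39.4, 43.4 and 56.0 CPM in the low and 72.3, 83.3 and 78.8 CPM in the high glucose libraries (0.76 ± 0.17, edgeR adjusted p = 0.0167). Psmc6 had 46.0, 53.9 and 55.0 CPM (low), then 64.1, 90.9 and 84.2 CPM (high) (0.63 ± 0.18, edgeR adjusted p = 0.0353), and Psmc2 had 44.9, 54.7 and 64.9 CPM (low), then 74.6, 86.9 and 83.5 CPM (high) (0.58 ± 0.17, edgeR adjusted p = 0.0444). In each of these the lowest high glucose library was replicate 1, still above all low ones. Psmc4 (0.49 ± 0.18) and Psmc5 (0.46 ± 0.16) did not pass, though their groups did not overlap. Psmc3 (0.18 ± 0.24) overlapped, with low glucose libraries from 68.1 to 125 CPM, and its exons share 215 bases with Slc39a13 on the other strand.

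All 3 genes of the rest of the base rose, with a median of 0.77. Psmd2, a scaffold on which ubiquitin shuttles and the deubiquitinase Usp14 dock, had 68.7, 69.5 and 85.4 CPM in the low and 142, 137 and 131 CPM in the high glucose libraries. It rose by 0.88 ± 0.16 (edgeR adjusted p = 0.00720), a 1.84-fold increase. Psmd1, the other scaffold, had 51.7, 53.7 and 67.5 CPM (low), then 99.0, 106 and 89.6 CPM (high) (0.77 ± 0.16, edgeR adjusted p = 0.0134). Psmd4, a ubiquitin receptor, had 46.4, 50.5 and 55.8 CPM (low), then 70.6, 89.6 and 89.6 CPM (high) (0.71 ± 0.16, edgeR adjusted p = 0.0165). The groups were apart in all 3.

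The lid, which removes the ubiquitin chain before a protein is unfolded, held both ends of the family. Of its 8 genes 5 rose, with a median of 0.63. Psmd8, a small lid subunit, had 50.8, 67.3 and 86.8 CPM in the low and 120.5, 248 and 206 CPM in the high glucose libraries. It rose by 1.49 ± 0.31 (edgeR adjusted p = 0.0134), 2.81-fold, from 68.3 ± 18.0 to 192 ± 65.1 CPM (SD, n = 3 each). High glucose replicate 1 was far below the other two high ones, and the call ended without low glucose replicate 2, at an estimate of 1.49. Psmd6, another structural lid subunit, had 57.2, 74.3 and 91.0 CPM in the low and 52.6, 59.0 and 56.6 CPM in the high glucose libraries, the most negative estimate of the family (-0.40 ± 0.19, edgeR adjusted p = 0.150). It did not pass, high glucose replicate 2 lay inside the low range with the other two just under it, and its sign turned with library totals (0.80).

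Psmd7, the partner of the deubiquitinase Psmd14, had 48.7, 56.2 and 66.2 CPM (low), then 92.0, 113 and 116 CPM (high) and rose by 0.91 ± 0.18 (edgeR adjusted p = 0.0101). Psmd14 itself had 21.4, 26.8 and 28.8 CPM (low), then 39.9, 46.0 and 41.6 CPM (high) (0.73 ± 0.16, edgeR adjusted p = 0.0143). Psmd11, which clamps the lid to the core, had 44.5, 42.6 and 55.4 CPM (low), then 76.9, 88.7 and 83.7 CPM (high) (0.81 ± 0.16, edgeR adjusted p = 0.00998). For all 3 the groups did not overlap. Psmd13 had 34.4, 33.2 and 41.8 CPM (low), then 50.4, 51.8 and 55.5 CPM (high) (0.53 ± 0.14, edgeR adjusted p = 0.0313), the smallest increase that passed, and its exons share 342 bases with Sirt3 on the other strand. Psmd12 (0.52 ± 0.16) and Psmd3 (0.49 ± 0.17) did not pass, but did with the replicate block (0.53 and 0.50).

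Psmd8 and Psmd6 were also expressed as shares of the summed proteasome counts, which need no scaling between libraries. Both were picked as the ends of the family from these same counts, so the shares are no separate evidence. Psmd8 held 3.44%, 4.06% and 4.36% of the summed counts in the low glucose libraries, against 5.23%, 9.26% and 8.04% in the high ones. Psmd6 held 3.87%, 4.48% and 4.58% of the summed counts in the low glucose libraries, against 2.29%, 2.20% and 2.21% in the high ones. Psmd8 was the smaller of the pair in each low glucose library and the larger in each high one.

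**Figure D4:**
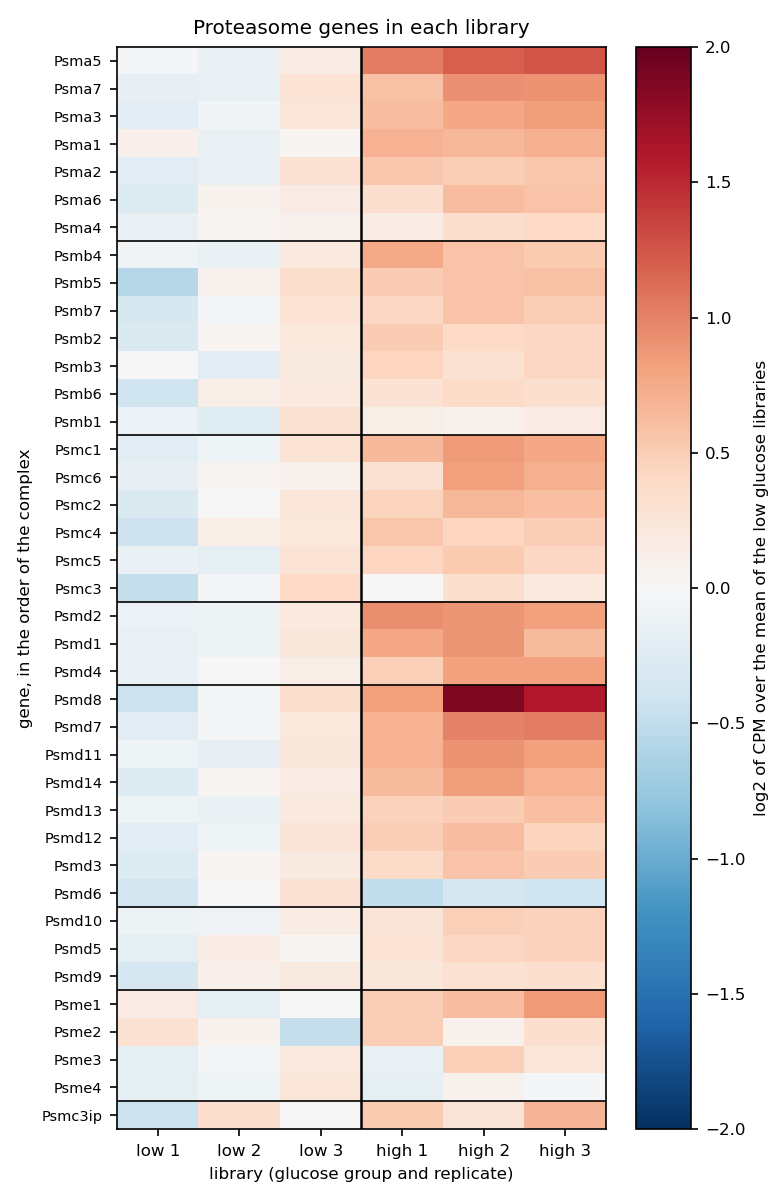
Log2 of the CPM over the mean of the low glucose libraries (colour) for the 39 tested genes (rows, in the order of the complex) in the 6 libraries (columns). Most cells of the high glucose columns are red, Psmd8 is darkest in high glucose replicates 2 and 3 (248 and 206 CPM), and Psmd6 is blue in all 3.

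Psmd5, Psmd9 and Psmd10 encode chaperones that assemble the 19S base and are not part of the finished particle. None of the 3 passed. Psmd5 had 14.6, 18.5 and 17.0 CPM (low), then 20.2, 22.2 and 23.0 CPM (high) (0.39 ± 0.16). Psmd9 had 8.03, 10.8 and 11.5 CPM (low), then 11.8, 12.4 and 12.8 CPM (high) (0.30 ± 0.20), and Psmd10 had 8.62, 8.81 and 10.2 CPM (low), then 11.0, 12.8 and 12.7 CPM (high) (0.40 ± 0.18). Their groups did not overlap, but lay close, as for Psmd9 between low glucose replicate 3 and high glucose replicate 1.

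Activators bind the core in place of the 19S cap. Psme1 and Psme2 form the interferon-inducible ring PA28. Their genes lie close together on chromosome 14 (55578123 to 55581529 and 55587441 to 55591113, GRCm38). Psme1 had 36.8, 28.4 and 32.9 CPM in the low and 46.1, 50.2 and 59.1 CPM in the high glucose libraries and rose by 0.66 ± 0.16 (edgeR adjusted p = 0.0224). Psme2 had 32.6, 27.8 and 18.9 CPM (low), then 37.1, 28.1 and 33.4 CPM (high) (0.31 ± 0.22). Psme2 did not pass, and high glucose replicate 2 lay inside the low range. Psme3, of the nuclear ring PA28 gamma, had 59.2, 65.7 and 77.4 CPM (low), then 61.6, 94.2 and 80.1 CPM (high) (0.22 ± 0.20), and Psme4, the large single-chain activator PA200, had 78.7, 84.4 and 107 CPM (low), then 78.5, 95.3 and 87.2 CPM (high) (-0.050 ± 0.17). Both overlapped between the groups, and Psme4 had the estimate nearest to 0, with a sign that turned with library totals (1.12).

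The members left untested were hardly counted. Psma8, an alpha subunit of the testis, had 1, 0 and 0 counts in low and 3, 2 and 3 counts in high glucose replicates 1 to 3. Psmb11, the catalytic subunit of the thymus, had 0 counts in every library. Psme2b, which is named as a copy of Psme2 so that reads of the 2 may be split between them, had 7, 5 and 2 counts at low and 20, 8 and 14 counts at high glucose. Psmc3ip met the rule by its name only, since it encodes a recombination factor. Its mean went from 0.790 ± 0.206 to 1.11 ± 0.156 CPM (SD, n = 3 in each group) without passing (0.53 ± 0.38), and it shares 385 exonic bases with Mlx on the other strand. Without Psmc3ip the median of the other 38 tested genes was 0.52.

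Levels of different subunits can be compared only per length of transcript. Per kb of exon, the mean level of the 14 tested core genes at low glucose ran from 4.04 ± 0.557 CPM per kb for Psmb3 to 31.1 ± 4.72 CPM per kb for Psma6 (SD, n = 3), a 7.70-fold range, although the core holds its subunits in equal numbers. At high glucose the same genes marked the ends, with 5.28 ± 0.229 and 44.6 ± 4.53 CPM per kb, and the range was 8.44-fold. Psmb6 (28.3 ± 5.85) and Psmb2 (26.1 ± 4.42) followed Psma6 at low glucose, and the 3 overlapped within 1 SD of their means. Psma3 (6.34 ± 1.08) came next to Psmb3 at the low end. With the longest transcript as the length the range was 8.89-fold and Psmb6 came first, so the order depends on the transcript models. In the order of all 42 members Psmd6 moved most, from rank 5 at low to rank 20 at high glucose, Psma5 went from rank 31 to 21, and Psmd8 from rank 10 to 1. With the longest transcript as the length these moves were from rank 2 to 14 for Psmd6, 33 to 31 for Psma5 and 8 to 1 for Psmd8.

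In TMM-scaled CPM, replicate levels of the members were tighter at high glucose, and the spread over all genes was not computed. The median coefficient of variation over the 38 tested genes other than Psmc3ip was 16.1% at low and 7.30% at high glucose, and it was the larger at low glucose for 33 of the 38. Low glucose replicate 3 was the highest low library for 34 of the 39 tested members, against 35.5% of all tested genes. Replicate 1 was the lowest for 29, a count without a computed share over all genes. The acinar markers took 49.7%, 65.3% and 63.2% of the low glucose libraries, and their part in this order was not tested. With their counts taken out, the members' shares at low glucose were 0.275%, 0.271% and 0.294%, with replicate 2 lowest. Library sizes after TMM were 6015639 to 11948475 at low and 19846361 to 28268761 at high glucose. The part of scaling and depth in the spread was not tested.

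The rest of the pathway moved in part. Of 14 assembly and associated factors 5 rose and none fell, with a median of 0.48. The count was 2 without low glucose replicate 2 or high glucose replicate 3. Usp14, which trims ubiquitin chains on the particle, had 19.8, 20.1 and 21.4 CPM in the low and 33.5, 45.0 and 38.3 CPM in the high glucose libraries (0.93 ± 0.16, edgeR adjusted p = 0.00600). Adrm1, a ubiquitin receptor of the cap, had 27.1, 29.6 and 35.2 CPM (low), then 49.1, 59.1 and 56.9 CPM (high) (0.85 ± 0.16, edgeR adjusted p = 0.00818). Pomp, the maturation factor of the core, had 28.2, 26.4 and 28.3 CPM (low), then 44.9, 40.0 and 45.5 CPM (high) (0.65 ± 0.13, edgeR adjusted p = 0.0108). All 3 rose without overlap, and the call for Pomp ended without low glucose replicate 2 and without high glucose replicate 3. Of 19 genes of ubiquitin supply, shuttles and p97, 6 rose and none fell, with a median of 0.33. The count was 3 without low glucose replicate 2, high glucose replicate 2 or high glucose replicate 3. Zfand2a, a stress-induced gene for a proteasome-associated zinc finger protein, had 14.1, 12.5 and 7.86 CPM (low), then 53.1, 49.2 and 51.1 CPM (high) (2.15 ± 0.22, edgeR adjusted p = 0.00126). Zfand5, of the same family, had 29.0, 24.3 and 25.8 CPM (low), then 46.1, 51.3 and 53.3 CPM (high) (0.93 ± 0.14, edgeR adjusted p = 0.00396), and Nploc4, a cofactor of the unfoldase p97, had 43.3, 47.9 and 46.7 CPM (low), then 74.2, 90.7 and 87.1 CPM (high) (0.87 ± 0.14, edgeR adjusted p = 0.00530). With hormone and granule gene scaling Zfand2a passed, while Usp14, Adrm1, Pomp, Zfand5 and Nploc4 did not.

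Of 11 regulators of proteasome genes 3 rose and none fell, with a median of 0.28. These were the small Maf genes, whose products pair with Nfe2l1 and Nfe2l2 on DNA. Maff had 5.61, 2.49 and 4.09 CPM in the low and 29.0, 27.4 and 25.4 CPM in the high glucose libraries, a 6.53-fold increase (2.71 ± 0.28, edgeR adjusted p = 0.00127). Mafk had 17.2, 21.4 and 22.5 CPM (low), then 41.2, 45.9 and 42.1 CPM (high) (1.09 ± 0.15, edgeR adjusted p = 0.00321), and Mafg had 35.4, 29.8 and 22.6 CPM (low), then 53.3, 58.6 and 60.7 CPM (high) (0.97 ± 0.18, edgeR adjusted p = 0.00920). The groups of all 3 were apart. Nfe2l1 had 180.4, 167 and 197 CPM (low), then 232, 291 and 266 CPM (high). Its groups did not overlap, but it did not pass (0.53 ± 0.18, edgeR adjusted p = 0.0606). Nfe2l2 had 64.5, 40.9 and 32.2 CPM (low), then 47.3, 85.4 and 78.2 CPM (high) (0.61 ± 0.31), and Ddi2, the protease that activates the Nfe2l1 protein, had 63.4, 47.7 and 48.6 CPM (low), then 45.8, 60.6 and 57.2 CPM (high) (0.032 ± 0.18), both with overlapping groups. Without high glucose replicate 1, Nfe2l1 (0.62) and Nfe2l2 (0.82) passed too, so that 5 regulators rose and 1 fell. In that fit 19.8% of all genes were called higher, against 13.3% with all libraries.

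Other large complexes differed in their medians, which were set side by side without a test. The 8 genes of the CCT chaperonin, which folds actin and tubulin, had a median of 0.71, with 3 higher and none lower, 5 higher with the replicate block and without high glucose replicate 1, and 1 without low glucose replicate 2. The 10 genes of the COP9 signalosome, whose subunits resemble those of the lid, had a median of -0.030, with 2 higher and none lower, 1 without low glucose replicate 1 or 3, and 0 without low glucose replicate 2, high glucose replicate 2 or high glucose replicate 3. Cytosolic ribosomal protein genes had a median of -0.45, and 79 of 80 estimates were below 0. By edgeR 0 of the 80 passed, 14 had an unadjusted p under 0.05, and DESeq2 called 7 lower and 0 higher. With edgeR 16 fell with the replicate block, 42 fell without low glucose replicate 1, and 71 rose with library totals. The 35 tested complex I genes of the respiratory chain had a median of -0.60, with 19 lower and none higher. That count was 2 without low glucose replicate 2 or high glucose replicate 3, 4 without high glucose replicate 2, 6 without low glucose replicate 3, 12 with no filter and 0 when scaled to hormone and granule genes, while library totals gave 12 higher and none lower. With library totals these medians were 1.87, 1.15, 0.77 and 0.59, beside 1.71 for the proteasome and 1.16 for all genes, so that the signs of the last 3 complexes turned there.

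**Figure D5:**
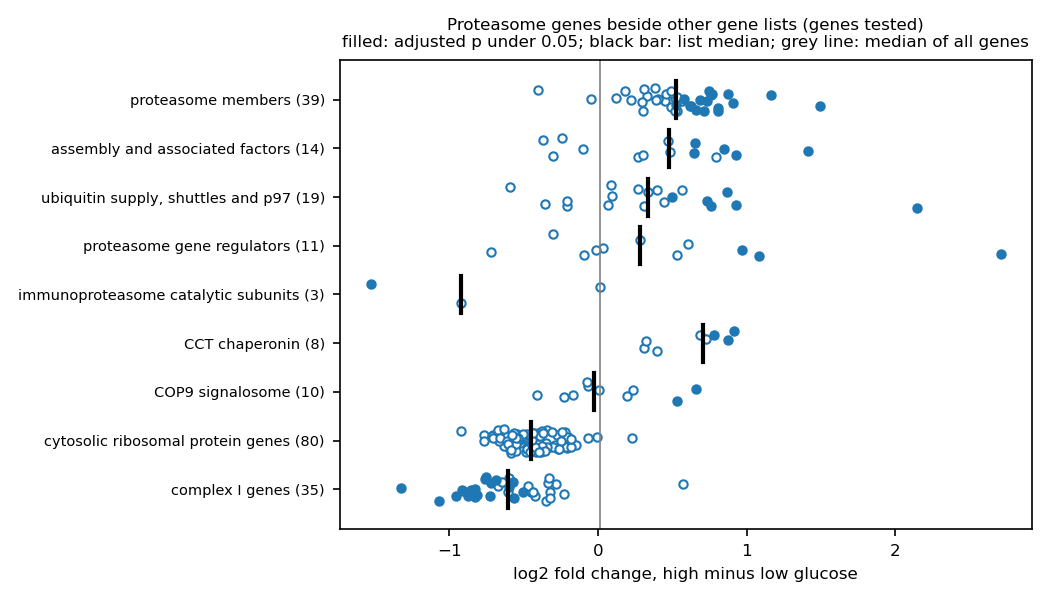
Log2 fold change (x axis, high minus low glucose) of each tested gene in the proteasome family, its partner lists and 4 other complexes, with the number of genes in brackets. Filled points passed the test, black bars are list medians, and the bar of the proteasome (0.53) lies to the right of the median of all genes while those of the ribosome (-0.45) and complex I (-0.60) lie to the left.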

How the data were processed

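Polyadenylated RNA of 6 islet libraries was measured. The deposited values are raw read counts per gene. GRCm38, STAR 2.7.3a and HTSeq 0.6.1p1 are the build and tools in the submitters' processing notes. Annotation release, strand setting and read filters are not given in the sources used here. Columns were assigned by name, and symbols, positions and exon lengths came from GENCODE M21 (no name for 495 genes, 0.0141% of counts). Members and lists were chosen with earlier results of these data known. Fam192a was matched as Psme3ip1 by synonym, and Paaf1 was not analysed here.

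The test was edgeR's quasi-likelihood test (edgeR 4.0.16, R 4.3.3) on high against low glucose after TMM and filterByExpr (minimum count 10, minimum total 15; 13996 genes kept), with Benjamini-Hochberg adjustment over all of them and a threshold of 0.05. Standard errors are the log2 fold change over the square root of F. Library values were given for the 8 largest and 8 smallest increases past the threshold, catalytic, activator, chaperone and untested genes, and up to 3 called genes of each partner list. Alternatives were 4 other scalings, 2 filters, DESeq2 1.42.0, limma-voom (limma 3.58.1), a replicate block and each library left out. Ratios were tested with SciPy 1.17.1. The fit was tested on simulated data.

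Group deviations of same-numbered libraries correlated at 0.40, 0.26 and 0.25, and other pairs at -0.31 to 0.07. The numbers may thus pair the libraries, although no label says so. The main test and the permutation test treated the libraries as unpaired, and the replicate block was an alternative. Blocked values stand beside a result where they change its call or move a count by over 1.5 times. Libraries of a group differed by more than sampling noise (chi-square over its degrees of freedom, 17.4 or more). PCR reads counted without molecular identifiers are not independent molecules. Figures were drawn with matplotlib 3.10.9.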

Additional observations from a re-analysis of the deposited data

How the results depend on the processing

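Genes changed in total numbered 3848 (2197 higher and 2473 lower, or 4670, with the replicate block, which gave 21 proteasome genes), 8965 with library totals, 2106 when scaled to hormone and granule genes, and from 1743 (without low glucose replicate 2) to 5685 (without high glucose replicate 1) with 1 library left out, with 1999 without high glucose replicate 3. Proteasome genes called higher numbered 17, or 39 with library totals, 2 with hormone and granule gene scaling and 3 to 20 with 1 library left out. Their median of 0.53 became 1.71 and 0.82 under these scalings, and 0.41 to 0.66 with 1 library left out. DESeq2 size factors, limma-voom and the stricter filter gave 17, DESeq2 and no filter 21, and all 17 genes were among the calls of each of these. Of all genes 13.1% were higher with DESeq2 size factors, 13.1% with the stricter filter and 9.80% with no filter. The shares of all genes for DESeq2 and limma-voom are not given here, so those counts of members stand without a background. No alternative called a member lower, and 36 of 39 members had a positive estimate in all 16 fits. The exceptions were Psmd6 (0.80 with library totals), Psme4 (1.12 with library totals, 0.27 with hormone and granule gene scaling, 0.048 with no filter, -0.14 to 0.11 with 1 library left out) and Psmc3 (-0.011 to 0.45 with 1 library left out). Psmb9 was 0.24 with library totals, and Psmb8 -0.0033 with the replicate block, -0.044 with limma-voom and -0.12 to 0.24 with 1 library left out, where Ddi2 was -0.041 to 0.18. The block changed the call of no member other than Psma2, Psma6, Psmd3 and Psmd12, and of the other followed genes that of Psmb9. The causes were not tested. Psma8, Psmb11 and Psme2b were counted too rarely to be tested and Psmc3ip had as few as 5 counts in a library, where the other 38 members had at least 48.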
